A study of Arabidopsis thaliana with 6 samples.

Results

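Retained long internal introns are introns of at least 200 bases that some transcripts of a gene splice out and other transcripts keep inside an exon. They are neither first nor last among the introns of the transcripts that splice them. In the deposited transcript annotation of Arabidopsis thaliana an intron was taken when some other transcript of its gene and strand covered it completely with 1 exon, and when it was neither the first nor the last intron of any transcript that splices it. There were 1540 such introns in 1144 genes, out of 21441 introns of every class with a retaining transcript and 13123 long internal introns in all. For each one, the TPM (an abundance per transcript length, whose total is the same for each library) of all transcripts that keep the intron were summed as the retaining sum, and the TPM of all transcripts that remove exactly that intron as the splicing sum. The retained share is the retaining sum over both sums together; transcripts that do neither are outside it, so it is not a share of the whole gene.

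Introns are removed by the spliceosome, whose small nuclear ribonucleoproteins each carry a ring of Sm proteins around their RNA, and SmE is a member of that ring. When an intron stays in a messenger RNA, the reading frame usually meets a stop codon inside it, and such transcripts are often destroyed by nonsense-mediated decay or held in the nucleus. Retention is the most common kind of alternative splicing in plants, and several genes for plant splicing proteins carry a long intron in the middle of the gene whose retention or partial splicing sets how much protein they make.

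Both groups were shoots of Col-0 seedlings grown in vitro for 3 weeks at 21 °C with 16 h of light and 8 h of dark and harvested without stress. One group was wild type (3 libraries), and the other carried a mutant allele of SME1 (3 libraries), called smeb-1 in the sample labels and sme1-1 in the series design. RNA was read as 150 bp paired ends from a stranded messenger RNA kit. What kind of lesion the allele is, the hour of harvest, and whether the libraries of a genotype came from separate plants are not given in the sources used here, so the p-values reflect the spread of these 6 libraries alone, part or all of which may be technical.

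TPM keep no depth, so the number of reads behind a value is unknown. SME1 was lower in every smeb-1 library, between 29.7 and 36.1 TPM against 73.9 to 76.9 TPM in wild type. The summed level of 4 shoot marker genes was 25361 to 27976 TPM in smeb-1 and 25104 to 26507 TPM in wild type; 1 of the 4 was higher (RBCS1A) and 2 were lower (LHCA2 and RCA). The summed level of 8 root markers was 57.4 to 93.6 TPM in smeb-1 against 21.9 to 25.1 TPM in wild type, with 6 of the 7 tested higher. Most of the wild-type sum was NRAMP1 (20.3 to 23.98 TPM, and 24.4 to 31.1 TPM in smeb-1), which did not pass (limma adjusted p = 0.0539). The 6 that passed ranged from IRT1, at 0.208 to 0.911 TPM in wild type and 13.5 to 24.8 TPM in smeb-1, to RHD2. RHD2 was at 0.291 to 0.523 TPM in wild type and 1.69 to 3.02 TPM in smeb-1. The summed level of 4 pollen and flower markers, of which AT5G07410 was at 0 in every library, was 4.76 to 6.45 against 2.44 to 3.71 TPM. The part of root or flower tissue in the retention results was not tested. In these whole-shoot samples, fewer cells of a type and less RNA per cell cannot be told apart.

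The introns below carry the results and were read from the RefSeq sequence of TAIR10.1, 5′ to 3′ in the direction of transcription. The first pair is shown whole, because 1 rose and the other fell in retention while both lie between coding exons; capitals mark the first stop codon in the reading frame that enters from the exon before. The RVE4 intron lies at chr5:650921-651183 (plus strand) and the ETFQO intron at chr2:18023421-18023643 (plus strand).
RVE4: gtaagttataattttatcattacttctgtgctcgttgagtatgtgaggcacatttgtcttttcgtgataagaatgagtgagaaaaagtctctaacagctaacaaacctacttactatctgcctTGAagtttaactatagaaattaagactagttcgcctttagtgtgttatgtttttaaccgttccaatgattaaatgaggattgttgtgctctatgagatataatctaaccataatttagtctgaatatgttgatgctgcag
ETFQO: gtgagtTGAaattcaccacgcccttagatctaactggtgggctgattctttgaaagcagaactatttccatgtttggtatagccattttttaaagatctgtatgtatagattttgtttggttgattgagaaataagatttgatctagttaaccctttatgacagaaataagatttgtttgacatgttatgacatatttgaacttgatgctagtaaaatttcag

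The next set gives the first 120 bases of the long intron in 5 genes for splicing proteins, again with the first in-frame stop in capitals, because genes of this kind are known for regulated long introns and their values differ in direction here; only SR30 and RS2Z33 passed the test, both upward. The coordinates of the whole introns are chr1:2943565-2944168 (SR30, minus strand), chr2:15671601-15672224 (RS2Z33, minus strand), chr3:19835913-19836400 (RS2Z32, minus strand), chr4:13025274-13026055 (RS40, plus strand) and chr3:18827440-18828348 (U1-70K, minus strand).
SR30: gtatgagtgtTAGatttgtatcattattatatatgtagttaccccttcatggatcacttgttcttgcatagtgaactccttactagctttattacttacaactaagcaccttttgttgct
RS2Z33: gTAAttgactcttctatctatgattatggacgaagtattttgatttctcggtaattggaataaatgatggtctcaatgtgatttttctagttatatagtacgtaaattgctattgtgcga
RS2Z32: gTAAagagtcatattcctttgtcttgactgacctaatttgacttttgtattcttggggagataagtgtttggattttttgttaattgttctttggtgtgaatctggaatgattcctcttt
RS40: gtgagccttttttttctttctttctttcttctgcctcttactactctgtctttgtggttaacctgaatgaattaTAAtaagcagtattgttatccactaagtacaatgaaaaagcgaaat
U1-70K: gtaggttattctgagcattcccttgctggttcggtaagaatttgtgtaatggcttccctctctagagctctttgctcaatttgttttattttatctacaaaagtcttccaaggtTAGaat

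The 5′ splice sites of some of the introns called in each direction and described below are shown as the last 3 exon bases in lower case and the first 6 intron bases in capitals. The GTAAGT hexamer, which pairs best with the 5′ end of U1 small nuclear RNA, is present in some of each direction.
APT3 (higher): cagGTAAAT
RVE4 (higher): actGTAAGT
AT5G53050 (higher): gagGTACTT
BXL1 (higher): aagGTAAAT
AT1G54730 (higher): cagGTAAGT
ETFQO (lower): cagGTGAGT
E1 ALPHA (lower): ataGTAAGT
VAB3 (lower): gagGTAAAT
MCCA (lower): cggGTATCC

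Retention of long internal introns changed in both directions in smeb-1 shoots, more often upward. Of the 1540 introns, 1272 in 974 genes could be tested; 128 had a mean of both sums under 2 TPM, 5 of these at 0 in every library, and 140 had a mean share outside 2% to 98%. Retention rose in 44 introns (3.46% of those tested) and fell in 8 (0.629%), in 50 genes together, which is 52 calls against 5.59% of all introns tested (limma on log2 of the ratio of the retaining to the splicing sum with 0.1 TPM added to each, adjusted p under 0.05). Over all 16046 introns tested in the same fit, 4.56% rose and 1.03% fell, so the long internal introns were called no more often than introns at large. Short internal introns, with 5012 tested, had 202 rises (4.03%) and 59 falls (1.18%). The difference in these shares between classes was not tested.

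The typical long internal intron moved little. The median log2 change was 0.19, beside 0.20 for short internal introns and 0.26 for all introns tested, and 62.2% of them had a change above 0 (64.7% of all). The median retained share per library was 15.2%, 16.8% and 17.7% in wild type and 17.1%, 18.9% and 18.3% in smeb-1, so the library medians overlapped. All 3 smeb-1 shares lay above all 3 wild-type shares in 314 of the introns (24.7%, against 24.2% of all introns) and below them in 112 (8.81%, against 8.195%).

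The calls rested on all 6 libraries. Without smeb-1 replicate 1 or smeb-1 replicate 3 limma called no long internal intron in either direction (211 higher and 43 lower at an unadjusted p under 0.05 without the first, 163 and 50 without the third), and without smeb-1 replicate 2 it called 2 higher and 0 lower (60 lower unadjusted). Leaving out wild type replicate 1 left 5 higher and 0 lower (75 lower unadjusted), wild type replicate 2 left 5 and 2, and wild type replicate 3 left 9 and 1, while 41 of the 52 called introns lost their call in all 6 of these fits.

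**Figure D1:**
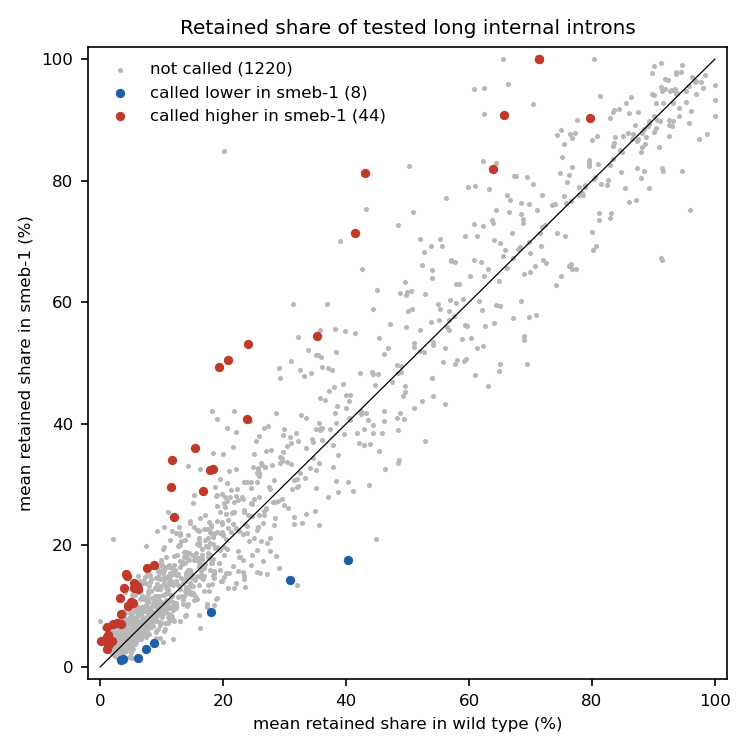
Mean retained share (%) in wild type (horizontal axis) and smeb-1 (vertical axis) for the 1272 tested long internal introns, 1 point per intron, with the line of equal shares. The 44 introns called higher lie above the line and the 8 called lower lie below it, and 25 of the 44 have a share under 10% in wild type.

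Most of the calls came from introns with a low share. Among the 434 introns with a wild-type share under 10%, 25 rose and 5 fell, with a median log2 change of 0.35. Among the 550 between 10% and 50%, 14 rose and 3 fell (median 0.16), and among the 288 above 50%, 5 rose and none fell (median 0.04). The wild-type share that sets these bins also enters the change, so a low bin leans upward by selection. The bins therefore cannot decide whether a low share itself goes with a rise. The median share of the 44 introns went from 6.08% to 15.1%, and that of the 8 from 8.09% to 3.39%. The log2 changes of the rises ran from 0.99 to 4.64 with adjusted p between 0.0105 and 0.0491, and those of the falls from -1.14 to -3.21 with adjusted p between 0.0201 and 0.0488. The fall of -3.21 was in NUDT24, whose sums together were under 2 TPM in wild type and which passed the filter through smeb-1 alone. The shares of the genotypes did not overlap in 43 of the 44 and in 7 of the 8; the exceptions were AT1G02610 and NUDT24.

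A higher ratio arose from either sum. Of the 44 introns, the retaining sum alone rose in 15, the splicing sum alone fell in 11, both rose in 8, the retaining sum rose while the splicing sum fell in 5, both fell in 3 and neither passed its own test in 2 (limma on log2(TPM + 1), adjusted over all introns). Of the 8 with lower retention, the retaining sum alone fell in 3, the splicing sum alone rose in 3, both fell in 1 and both rose in 1. These splits depend on the scale, since the median gene was higher by 0.22 (log2) in smeb-1 on the deposited TPM and by -0.03 after median-of-ratios scaling. After that scaling the 44 comprised 7 with only the retaining sum higher, 15 with only the splicing sum lower, 7 with both higher, 10 with the sums moving apart, 3 with both lower and 2 with neither. The ratio itself does not depend on scaling, apart from the 0.1 TPM added. Statements below on which sum of an intron moved are on the deposited TPM and share this limit. There the splicing sums of GAD2, SR30, E1 ALPHA and both AT3G56160 introns were not called. After median-of-ratios scaling all of these were called lower, and after quantile normalization those of GAD2 and E1 ALPHA were called higher.

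**Figure D2:**
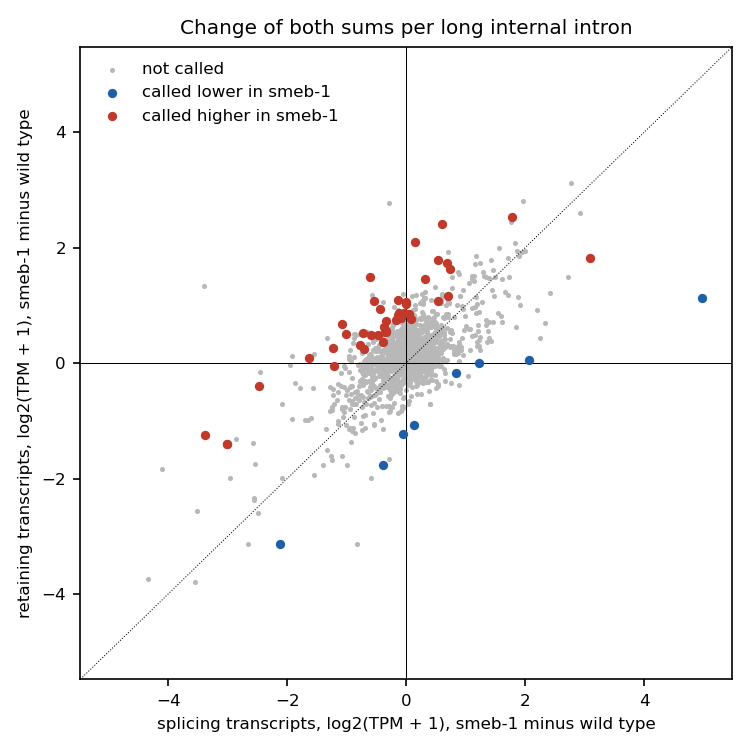
Change of the splicing sum (horizontal axis) and of the retaining sum (vertical axis), each as the smeb-1 minus wild-type difference in log2(TPM + 1), for the 1272 tested long internal introns. Of the 44 introns called higher (red), all but the scpl10 intron lie above the dotted line of equal change, and they spread over introns whose splicing sum rose, fell or did not pass its test.

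Over all 1272 introns, the retaining sum was higher in 266 (20.9%) and lower in 123 (9.67%), beside 26.6% and 11.00% of all introns. The splicing sum was higher in 298 (23.4%) and lower in 303 (23.8%), beside 27.5% and 24.6%. After median-of-ratios scaling these counts became 146 and 216 for the retaining sum and 171 and 523 for the splicing sum; after quantile normalization they were 151 and 221, and 304 and 329. Of the 974 host genes, 357 were higher (36.7%) and 282 lower (29.0%) in total TPM, beside 47.3% and 20.02% of all genes tested. With median-of-ratios scaling 198 were higher and 509 lower. Under either scaling the shares over all introns and all genes were not counted. The scaled counts are therefore not a trait of this class. The median host gene had a log2 change of 0.04, against 0.22 for all genes.

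Retention rose most in AT5G65610, which encodes an uncharacterized protein, where the spliced form fell to 0 or next to it. Its splicing sum was 6.42, 8.67 and 6.42 TPM in the wild-type libraries, and in smeb-1 it was 3.31e-08 TPM in replicate 1 and listed at 0 in the others. The retaining sum, at 16.49, 18.996 and 17.985 TPM in the wild-type libraries, fell as well, to 4.72, 7.15 and 6.67 TPM. The gene held a pair of adjacent introns of 360 and 244 bases (chr5:26219936-26220295 and chr5:26220353-26220596, plus strand). They are kept together in the last exon of 1 assembled transcript and removed together in the other. They therefore carry the same values and the same log2 change of 4.64 (SE 0.42, adjusted p = 0.0105). Because the spliced form is at or next to 0 in smeb-1, the size of that change rests on the 0.1 TPM added.

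APT3 (AT4G22570), for an adenine phosphoribosyltransferase that salvages adenine and cytokinin bases, had the largest rise among the called introns with both forms measured in both genotypes. Its 1765-base intron (chr4:11882957-11884721, minus strand) had a retained share of 1.16%, 1.17% and 1.08% in wild type and 6.74%, 7.07% and 5.76% in smeb-1. The libraries of each genotype lay close together and far from the other genotype. The retaining sum rose from 1.36 ± 0.134 to 9.16 ± 1.16 TPM (SD, n = 3 each), while the splicing sum went from 119 ± 12.6 to 131 ± 10.7 TPM, which did not pass its test. The log2 change of the ratio was 2.52 (SE 0.24, adjusted p = 0.0121), and the intron kept its call without any 1 wild-type library (adjusted p up to 0.0484) but not without any 1 smeb-1 library (adjusted p up to 0.0722).

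RVE4 (AT5G02840), listed as LCL1 in RefSeq and encoding a Myb-like transcription factor of the circadian clock, kept the 263-base intron shown whole above, mostly inside a last exon. Its share was 4.05%, 6.35% and 2.196% in wild type and 17.9%, 17.2% and 10.7% in smeb-1. All smeb-1 values lay above all wild-type values, with the third replicate of each genotype the lowest. The splicing sum fell from 37.6 ± 2.65 to 17.4 ± 0.869 TPM, the retaining sum went from 1.62 ± 0.742 to 3.15 ± 0.916 TPM (adjusted p = 0.0663), and the gene as a whole fell from 199 ± 2.19 to 111 ± 1.03 TPM. The ratio changed by 2.08 (SE 0.44, adjusted p = 0.0448).

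BXL1 (AT5G49360), a beta-xylosidase that trims cell wall xylan, showed higher retention inside a gene that fell steeply. The gene went from 220.1 ± 13.7 to 24.4 ± 11.7 TPM. Transcripts that splice its 1313-base intron (chr5:20014071-20015383, minus strand) fell from 212 ± 14.001 to 21.3 ± 10.4 TPM and those that keep it from 8.45 ± 1.82 to 3.13 ± 1.43 TPM. The share was 2.88%, 4.18% and 4.49% in wild type and 13.1%, 14.6% and 11.3% in smeb-1, higher in every smeb-1 library (log2 change 1.95, SE 0.27, adjusted p = 0.0227). CGLD27 (AT5G67370), which encodes a DUF1230 protein of the green lineage, was the opposite case. Both of its sums rose, the splicing sum from 42.5 ± 4.09 to 152 ± 52.7 TPM and the retaining sum from 0.472 ± 0.1003 to 8.15 ± 4.71 TPM. The share of its 401-base intron (chr5:26878215-26878615, minus strand) was 1.15%, 0.861% and 1.296% in wild type and 5.97%, 4.83% and 3.74% in smeb-1 (log2 change 1.93, adjusted p = 0.0266), and smeb-1 replicate 1 was highest in both sums.

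AT5G53050, an alpha/beta-hydrolase gene, was one of the 5 in which the sums moved apart. Transcripts with its 500-base intron (chr5:21510926-21511425, minus strand) rose from 1.96 ± 0.576 to 5.22 ± 0.791 TPM and those without it fell from 43.4 ± 3.63 to 29.5 ± 1.13 TPM. The share was 3.27%, 4.28% and 5.296% in wild type and 14.8%, 16.6% and 13.5% in smeb-1, with no overlap (log2 change 1.95, adjusted p = 0.0212). Absence of overlap was a condition for naming the largest rises in log2 ratio. In AT2G42300, a basic helix-loop-helix gene, the retaining sum went from 1.81 ± 0.517 to 1.95 ± 0.0852 TPM (adjusted p = 0.754) while the splicing sum fell from 14.03 ± 3.34 to 3.77 ± 0.183 TPM. Its share was 14.4%, 8.09% and 12.6% in wild type and 32.9%, 33.8% and 35.7% in smeb-1, with every smeb-1 library above every wild-type library (log2 change 1.97, adjusted p = 0.0247).

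AT1G54730, a sugar-transporter-like gene of the major facilitator superfamily, and AT1G67060, a peptidase M50B-like gene, also had a lower splicing sum. In AT1G54730 the splicing sum fell from 7.19 ± 1.05 to 3.08 ± 0.559 TPM and the share of the intron at chr1:20427344-20428387 (plus strand) was 26.8%, 17.3% and 18.2% in wild type and 46.5%, 54.3% and 50.6% in smeb-1 (log2 change 1.92, adjusted p = 0.0253). In AT1G67060 the splicing sum fell from 20.7 ± 0.826 to 8.24 ± 0.254 TPM and the share was 13.4%, 13.8% and 18.9% in wild type and 32.2%, 36.7% and 39.1% in smeb-1 (log2 change 1.63, adjusted p = 0.0278). Wild-type replicate 1 was the highest of its group in AT1G54730 and replicate 3 in AT1G67060. The gene total fell in both, by 0.72 and 0.99 on the log2 scale.

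Other named introns had wide rises in share. In AT4G34150, a C2-domain lipid-binding gene, the 200-base intron had a share of 57.02%, 73.04% and 66.995% in wild type and 90.9%, 94.1% and 87.4% in smeb-1, and neither sum passed its own test. In AT5G67140, an F-box gene, the share was 20.7%, 13.5% and 23.7% in wild type and 59.5%, 43.7% and 44.8% in smeb-1 and the retaining sum rose from 0.616 ± 0.169 to 3.504 ± 1.21 TPM. AT1G28710, a nucleotide-diphospho-sugar transferase gene, had a share of 42.5%, 47.4% and 39.2% in wild type and 80.8%, 78.95% and 84.3% in smeb-1 for an intron in its 5′ UTR. In none of these did the genotypes overlap, which was so for 43 of the 44 called rises and is no separate support.

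The same held for ARI8 (AT1G65430), which encodes an ARIADNE-type ubiquitin ligase, at 27.1%, 26.7% and 18.6% in wild type and 46.8%, 55.8% and 56.9% in smeb-1. AT3G07760, a sterile alpha motif gene with the intron in its 5′ UTR, had 30.99%, 47.9% and 45.3% in wild type and 69.6%, 74.2% and 70.5% in smeb-1. UBC10 (AT5G53300), a ubiquitin-conjugating enzyme gene, had 34.2%, 39.8% and 31.8% in wild type and 52.3%, 55.4% and 55.6% in smeb-1, where the splicing sum fell from 7.53 ± 1.01 to 4.21 ± 0.479 TPM in a gene whose total was between 669 and 886 TPM. The log2 changes of these 6 introns lay between 1.11 (UBC10) and 2.37 (AT4G34150), with adjusted p from 0.0201 (AT1G28710) to 0.0458 (UBC10), and the sums of both forms together were under 5 TPM in ARI8, AT1G28710 and AT3G07760.

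**Figure D3:**
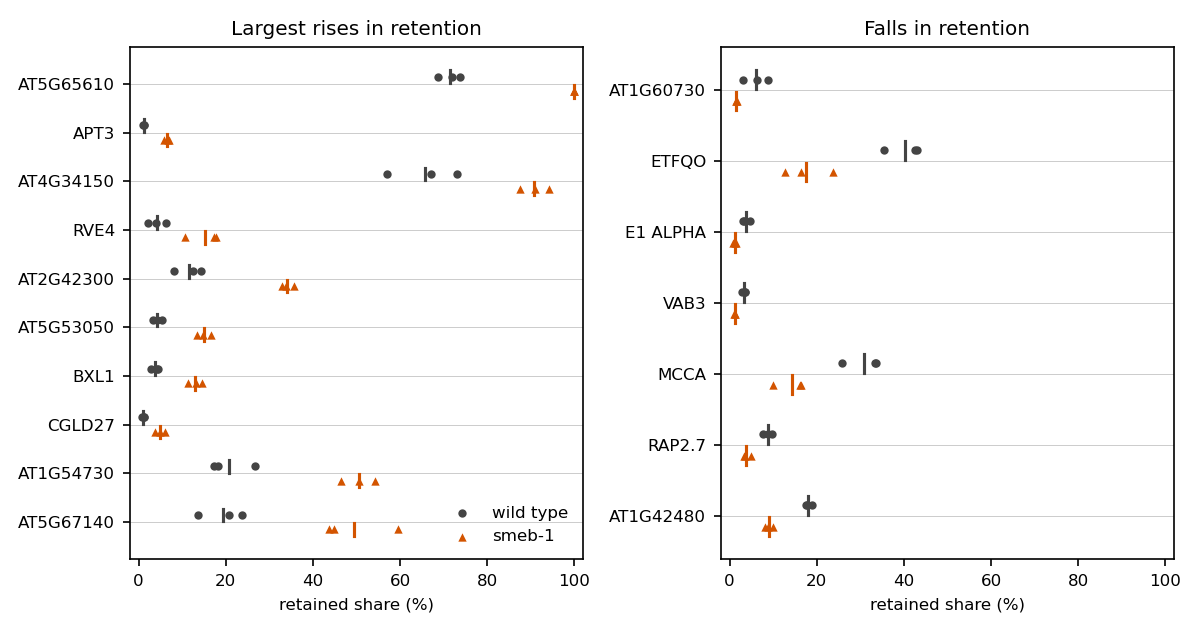
Retained share (%) in each wild-type library (circles) and smeb-1 library (triangles), with group means as vertical bars, for the 10 largest rises (left) and the 7 falls that met the same rule (right). No intron has overlapping genotypes, because the rule took only introns without overlap. The wild-type shares run from about 1.1% in APT3 and CGLD27 to about 71% in AT5G65610.

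Retention fell in 8 introns, of which 7 met the rule for named introns, which required that the genotypes not overlap. ETFQO (AT2G43400), which passes electrons from the breakdown of branched-chain amino acids to ubiquinone in mitochondria, had a share of 42.96%, 42.6% and 35.4% in wild type and 16.3%, 23.7% and 12.7% in smeb-1 for the 223-base intron shown whole above. All smeb-1 libraries lay below all wild-type libraries. The retaining sum fell from 11.3 ± 3.91 to 2.57 ± 0.814 TPM and the splicing sum went from 16.4 ± 3.63 to 12.04 ± 0.863 TPM (adjusted p = 0.0569), with a log2 change of the ratio of -1.67 (SE 0.32, adjusted p = 0.0385). MCCA (AT1G03090), a subunit of the methylcrotonyl-CoA carboxylase of leucine breakdown, had 25.9%, 33.3% and 33.5% in wild type and 9.97%, 16.2% and 16.5% in smeb-1 at its 301-base intron (chr1:741208-741508, plus strand). The whole gene fell from 114 ± 29.9 to 17.7 ± 1.03 TPM, and the retaining sum fell further than the splicing sum, from 25.8 ± 2.51 to 2.09 ± 0.602 TPM against 59.8 ± 18.9 to 12.5 ± 0.993 TPM (log2 change of the ratio -1.40, SE 0.31, adjusted p = 0.0488).

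E1 ALPHA (AT1G59900), a subunit of the mitochondrial pyruvate dehydrogenase complex, and VAB3 (AT1G20260), a subunit of the vacuolar proton pump, had a minor retaining form that fell, while the splicing sum did not pass its test. The E1 ALPHA intron (chr1:22052658-22053057, plus strand) had a share of 3.29%, 3.101% and 4.61% in wild type and 0.844%, 1.57% and 1.32% in smeb-1 (log2 change -1.56, adjusted p = 0.0448), with the retaining sum going from 5.37 ± 1.23 to 1.6999 ± 0.439 TPM. The VAB3 intron (chr1:7018442-7018716, plus strand) had 2.93%, 3.56% and 3.57% in wild type and 1.31%, 0.932% and 1.17% in smeb-1 (log2 change -1.55, adjusted p = 0.0307), with the retaining sum going from 4.604 ± 0.659 to 1.67 ± 0.3201 TPM. Neither intron had overlapping genotypes.

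In RAP2.7, AT1G60730 and AT1G42480 the splicing sum rose instead. RAP2.7 (AT2G28550), also known as TOE1, an AP2-type repressor of flowering, had a share of 9.75%, 8.75% and 7.67% in wild type and 4.83%, 3.47% and 3.29% in smeb-1 while its splicing sum rose from 39.5 ± 4.83 to 93.7 ± 8.48 TPM (log2 change -1.26, adjusted p = 0.0429). AT1G60730, an aldo-keto reductase gene, had 6.38%, 3.14% and 8.89% in wild type and 1.42%, 1.78% and 1.398% in smeb-1 while the splicing sum rose from 6.94 ± 0.572 to 32.4 ± 4.23 TPM (log2 change -2.01, adjusted p = 0.0347). AT1G42480 had 17.5%, 17.8% and 18.9% in wild type and 9.99%, 8.22% and 8.83% in smeb-1, the splicing sum rising from 10.9 ± 1.13 to 20.2 ± 0.721 TPM (log2 change -1.14, adjusted p = 0.0354). With Araport11 transcripts alone the AT1G42480 change was 0.59 (adjusted p = 0.736), opposite in direction and not called. The retaining sums of all 3 did not pass their test (adjusted p of 0.991, 0.809 and 0.4397).

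By words in their RefSeq products and notes, host genes of ubiquitin and proteolysis held 103 tested introns, of which 9 rose (8.74%) and none fell (4 lower at an unadjusted p under 0.05 in limma). The background of rises was 4.56%, the word search was a coarse one, and the difference was not tested. The 9 include scpl10, a serine carboxypeptidase-like gene, whose log2 change of 1.31 turned to -1.26 with 1 TPM added to each sum (adjusted p = 0.00347). Genes of RNA processing and binding had 2 rises among 101 introns, transcription factors and chromatin 3 among 77, kinases and phosphatases 1 among 100, transport 1 rise and 1 fall among 53, and chloroplast genes 1 rise among 42. The remaining 796 introns had 27 rises and 7 falls.

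The proteolysis group is a product of the word search, and protein turnover as a theme was not tested. The search placed ARI8 among the remaining introns and the RING finger gene AT1G02610 under transcription factors and chromatin. Besides UBC10, AT1G67060 and AT5G67140, the proteolysis group included Hrd1B (AT1G65040), a ubiquitin ligase of the endoplasmic reticulum, with a share of 0.743%, 0.672% and 2.25% in wild type and 6.22%, 4.92% and 4.69% in smeb-1 and both sums higher. DEG5 (AT4G18370), a protease of the thylakoid lumen, had 3.33%, 3.497% and 3.27% in wild type and 7.23%, 6.97% and 6.91% in smeb-1. FUS5 (AT1G02090), a subunit of the COP9 signalosome, had 22.4%, 22.05% and 27.1% in wild type and 39.2%, 40.9% and 42.4% in smeb-1. None of these overlapped between genotypes, as was so for 43 of the 44 called rises, so this adds no support to the call. The log2 changes were 1.85, 1.09 and 1.11 (adjusted p of 0.0447, 0.03895 and 0.0403). These 3 were named after their values were seen, as were the genes of the next paragraph.

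Other rises lay in genes of metabolism and flowering. SOC1 (AT2G45660), listed as AGL20 in RefSeq, an integrator of flowering signals, had a share of 1.28%, 0.897% and 1.43% in wild type and 3.17%, 4.29% and 3.12% in smeb-1 for a 1002-base intron, with the retaining sum rising from 1.85 ± 0.378 to 5.14 ± 1.39 TPM (log2 change 1.55, adjusted p = 0.0379). BCAT3 (AT3G49680), a plastid branched-chain aminotransferase, had 5.9996%, 5.38% and 4.96% in wild type and 15.8%, 13.3% and 12.4% in smeb-1 with both sums rising (log2 change 1.45, adjusted p = 0.0281). BETA-OHASE 1 (AT4G25700), a beta-carotene hydroxylase, had 3.01%, 1.78% and 1.46% in wild type and 6.55%, 7.23% and 7.61% in smeb-1 (log2 change 1.74, adjusted p = 0.0332). CIPK3 (AT2G26980), a protein kinase of calcium signalling, was the single call among kinases and phosphatases. Its share was 5.57%, 5.44% and 7.39% in wild type and 12.4%, 13.4% and 12.9% in smeb-1, and its splicing sum fell from 43.2 ± 5.08 to 18.1 ± 1.58 TPM (log2 change 1.19, adjusted p = 0.0386). No genotype overlap was seen in these 4, as in nearly all called rises.

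Of 25 genes for splicing regulators (SR proteins, U1-70K, U2AF large subunits, PTB and GRP proteins), 15 held a long internal retained intron, with 30 introns in all and 27 tested. Retention rose in 2 and fell in none (2 lower at an unadjusted p under 0.05 in limma), a share of rises to be read against 4.56% of all introns, and the median log2 change was 0.13. At the gene level 7 of the 25 were higher and 5 lower, beside 47.3% and 20.02% of all genes tested. These became 2 and 18 with median-of-ratios scaling. The shares of all genes under that scaling were not counted, so 2 and 18 are not a result about this list.

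SR30 (AT1G09140), an SR protein that regulates its own and other splice sites, was one of the rises. Its 604-base intron had a share of 4.81%, 4.999% and 5.28% in wild type and 10.5%, 12.01% and 9.68% in smeb-1, higher in each smeb-1 library. The retaining sum rose from 3.07 ± 0.0779 to 6.39 ± 0.5396 TPM and the splicing sum went from 58.01 ± 2.91 to 53.5 ± 6.39 TPM (log2 change of the ratio 1.15, SE 0.22, adjusted p = 0.0382). RS2Z33 (AT2G37340), an SR protein with zinc knuckles, was the other. Its 624-base intron had 5.54%, 5.26% and 5.1998% in wild type and 11.1%, 9.14% and 11.2% in smeb-1, with the splicing sum falling from 54.02 ± 1.24 to 42.5 ± 1.84 TPM (log2 change 1.03, SE 0.22, adjusted p = 0.0467). In both, the first in-frame stop comes within the opening bases of the intron, at base 11 in SR30 and base 2 in RS2Z33.

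RS40 (AT4G25500), another SR protein, had the widest spread of values. The share of its 782-base intron was 5.698%, 0.136% and 0.6195% in wild type and 25.2%, 22.4% and 15.7% in smeb-1. Wild type replicate 1 stood apart from the other wild-type libraries, and every smeb-1 library was above all of them. The retaining sum rose (adjusted p = 0.00107), while the ratio, with a log2 change of 4.49 and SE of 1.00, just missed the threshold (adjusted p = 0.0507). RS2Z32 (AT3G53500), the close relative of RS2Z33 with a stop at the same base of the intron, had 21.4%, 23.6% and 26.7% in wild type and 32.8%, 31.2% and 26.9% in smeb-1. Its smeb-1 libraries all lay above wild type, narrowly in replicate 3 (log2 change 0.47, adjusted p = 0.255).

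U1-70K (AT3G50670) and U2AF65A (AT4G36690), proteins that recognise the 5′ and the 3′ splice site, had lower shares in smeb-1 that did not pass the test. In U1-70K the 909-base intron had 60.1%, 61.9% and 67.3% in wild type and 49.1%, 44.02% and 45.5% in smeb-1, with no overlap (log2 change -0.99, SE 0.25, adjusted p = 0.0645). In U2AF65A the 273-base intron (chr4:17294431-17294703, minus strand) had 55.3%, 59.7% and 63.5% in wild type and 51.4%, 47.6% and 53.1% in smeb-1, and the retaining sum fell from 33.2 ± 0.643 to 19.2 ± 1.802 TPM (log2 change of the ratio -0.52, SE 0.25, adjusted p = 0.248).

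**Figure D4:**
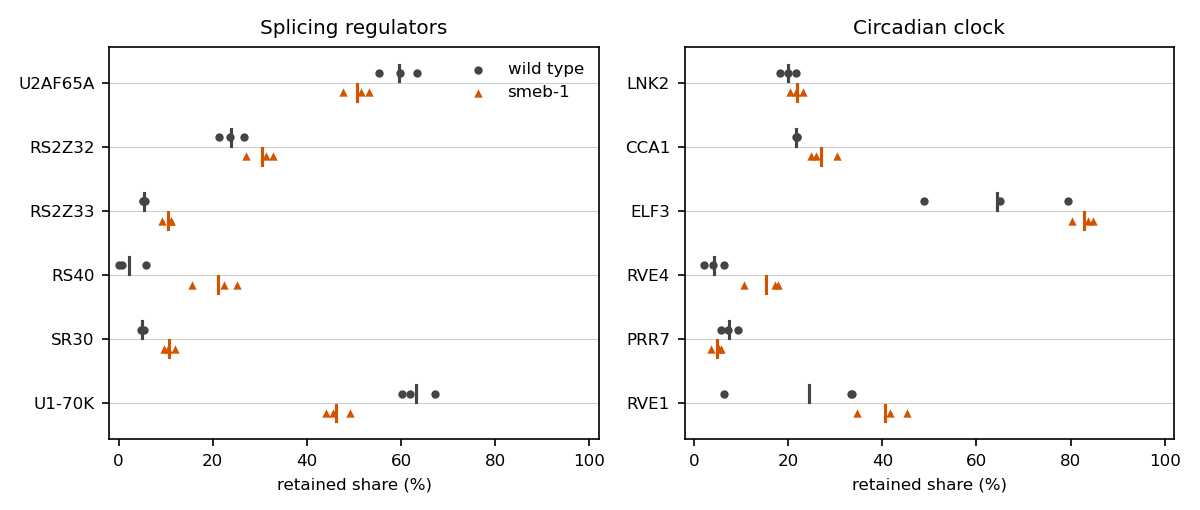
Retained share (%) in each wild-type library (circles) and smeb-1 library (triangles), with group means as vertical bars, for up to 6 introns of splicing regulators (left) and of circadian clock genes (right). SR30, RS2Z33 and RVE4 were called higher; U1-70K and U2AF65A lie to the left in smeb-1 without a call.

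Of 18 circadian clock genes, 6 held such an intron, with 9 introns in all, each of them tested. Only the RVE4 intron was called higher, beside 4.56% of all introns. None fell (0 lower at an unadjusted p under 0.05 in limma), beside 1.03% of all introns. The median log2 change was 0.40, beside 0.26 for all introns. CCA1 (AT2G46830), a Myb-like core factor of the morning, had 21.8%, 21.9% and 21.6% in wild type and 30.4%, 25.9% and 24.8% in smeb-1 for its 478-base intron. The smeb-1 libraries were all higher, with replicate 1 the farthest, with a log2 change of 0.40 (SE 0.22, adjusted p = 0.2898). Both forms rose, the retaining sum from 7.397 ± 0.995 to 21.1 ± 4.03 TPM and the splicing sum from 26.6 ± 3.46 to 56.5 ± 5.15 TPM.

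ELF3 (AT2G25930), part of the evening complex, had 48.8%, 64.95% and 79.4% in wild type and 80.4%, 83.6% and 84.7% in smeb-1, with a wide spread in wild type (log2 change 1.30, SE 0.51, adjusted p = 0.165). RVE1 (AT5G17300), a Myb-like factor that links the clock to auxin, had 6.36%, 33.6% and 33.4% in wild type and 34.7%, 41.6% and 45.2% in smeb-1, where wild type replicate 1 was far below the rest (adjusted p = 0.3099). PRR7 (AT5G02810), a repressor of morning genes, had 9.36%, 7.13% and 5.74% in wild type and 3.703%, 5.73% and 5.21% in smeb-1, the only one of the 6 with a negative change (-0.62, adjusted p = 0.249), and its genotypes nearly met. LNK2 (AT3G54500), a coactivator that works with RVE proteins, had 19.9%, 18.3% and 21.8% in wild type and 20.4%, 21.8% and 23.2% in smeb-1, overlapping between genotypes (log2 change 0.16, adjusted p = 0.665).

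None of the 5 most abundant tested introns was called. ALB3 (AT2G28800), an insertase of thylakoid membrane proteins, had 5.68%, 5.91% and 5.26% in wild type and 7.42%, 7.24% and 7.77% in smeb-1, with no overlap but a log2 change of 0.44 (adjusted p = 0.242). PTAC4 (AT1G65260), also known as VIPP1 and needed for thylakoid membranes, had 2.07%, 2.02% and 2.61% in wild type and 3.998%, 4.49% and 3.84% in smeb-1 (0.91, adjusted p = 0.07698). AT5G03880, a thioredoxin-family gene, had 2.67%, 2.29% and 3.44% in wild type and 4.32%, 4.899% and 4.96% in smeb-1 (0.79, adjusted p = 0.119). In these 3 the smeb-1 libraries all lay above wild type.

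ACR11 (AT1G16880), an ACT-domain protein of the plastid, overlapped at 12.9%, 14.7% and 16.1% in wild type and 16.96%, 16.7% and 14.3% in smeb-1 (adjusted p = 0.682). RD22 (AT5G25610), a dehydration-responsive gene, rose as a whole from 55.2 ± 4.83 to 404 ± 80.2 TPM, and its retaining and splicing sums rose together, the first from 5.16 ± 1.67 to 50.998 ± 5.65 TPM and the second from 50.1 ± 3.16 to 353 ± 74.5 TPM. The retained share of RD22 was 11.1%, 9.82% and 6.67% in wild type and 11.9%, 14.2% and 12.3% in smeb-1, so the ratio changed by 0.54 with adjusted p = 0.274.

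The share of introns called higher was larger in the longer classes. The rises were 11 of 580 introns of 200 to 299 bases (1.90%), 14 of 476 of 300 to 499 bases (2.94%), 13 of 176 of 500 to 999 bases (7.39%) and 6 of 40 of 1000 bases or more (15%). Of all introns tested, 4.56% rose, and the 40 longest lay in 36 genes. Median log2 changes were 0.08, 0.24, 0.34 and 0.42, and the falls were 3, 5, 0 and 0 (5 and 0 lower at an unadjusted p under 0.05 in the last pair of classes). Median standard errors (0.32, 0.31, 0.29 and 0.29) and median sums of both forms (18.8, 18.8, 16.5 and 15.5 TPM) were similar in size across the classes. At 1000 bases or more the library medians of the share overlapped, at 12.2% to 18.6% in wild type and 17.9% to 20.5% in smeb-1. They also overlapped at 200 to 299 bases, but not in the classes between. Around the length threshold itself, the 191 internal introns of 180 to 199 bases had 6 rises, 1 fall and a median of -0.03, and the 131 of 200 to 219 bases had 4 rises, no fall and a median of 0.05. No test of a trend with length was made, and introns of a gene share transcripts.

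**Figure D5:**
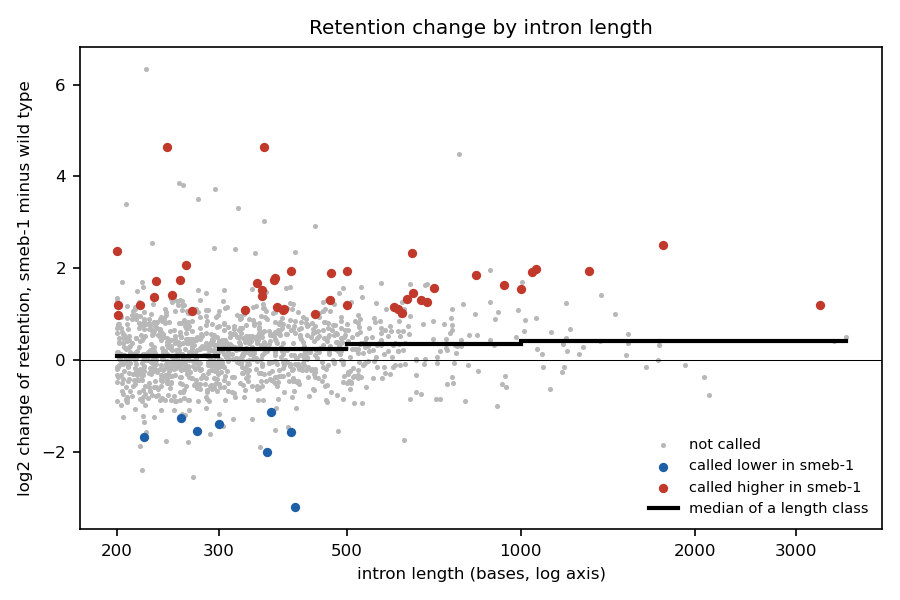
Log2 change of retention (smeb-1 minus wild type, vertical axis) against intron length in bases (log axis) for the 1272 tested long internal introns, with the median of each length class as a black line. The medians step from 0.08 at 200 to 299 bases to 0.42 at 1000 bases or more, and the called falls (blue) are all shorter than 500 bases.

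The longest tested introns were mixed. GAD2 (AT1G65960), a glutamate decarboxylase that makes GABA, kept a 3298-base stretch (chr1:24552471-24555768, plus strand) at 1.67%, 1.84% and 2.11% in wild type and 3.77%, 4.64% and 4.297% in smeb-1, and this passed the test (log2 change 1.19, SE 0.24, adjusted p = 0.0421) as the retaining sum rose from 3.75 ± 0.352 to 8.65 ± 1.09 TPM while the splicing sum went from 197 ± 5.503 to 195 ± 4.34 TPM. FCA (AT4G16280), an RNA-binding regulator of flowering time, kept its 2075-base intron at 52.01%, 54.4% and 55.6% in wild type and 49.2%, 46.5% and 47.1% in smeb-1, lower in every smeb-1 library but not called (log2 change -0.37, adjusted p = 0.338). AT1G12290, a disease resistance gene with the longest intron of all at 3649 bases, had 27.4%, 23.6% and 23.4% in wild type and 40.2%, 28.99% and 29.6% in smeb-1 (adjusted p = 0.273).

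AT3G27990 (3480 bases) had 2.71%, 3.46% and 3.03% in wild type and 1.899%, 6.902% and 5.04% in smeb-1, with smeb-1 replicate 1 below all of wild type and the others above it. UMAMIT44 (AT3G28130), an amino acid transporter-like gene, had 62.1%, 100% and 70.3% in wild type and 63.6%, 67.3% and 65.7% in smeb-1 for 2114 bases, with the splicing sum at 0 in wild type replicate 2 (adjusted p = 0.519). Neither passed the test.

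Nearly all members had ordinary ends on TAIR10.1. GT-AG ends were found in 1508 of the 1540, GC-AG in 23, AT-AC in 5 and others in 4. The most abundant introns without GT-AG ends were all GC-AG, and none of the 3 was called. AT1G66260, an RNA-binding protein gene, had 55.9%, 59.2% and 62.7% in wild type and 48.98%, 52.7% and 49.4% in smeb-1 (chr1:24696917-24697661, minus strand), lower in every smeb-1 library (log2 change -0.52, adjusted p = 0.225), with both sums falling. AT5G35170, an adenylate kinase gene, had 27.2%, 34.4% and 37.9% in wild type and 47.1%, 47.4% and 49.3% in smeb-1 (chr5:13421064-13421488, plus strand), higher in every smeb-1 library (0.90, adjusted p = 0.0868). RPP5 (AT4G16950), a disease resistance gene of a cluster whose close copies can share reads, overlapped at 75.04%, 82.5% and 81.02% in wild type and 81.7%, 83.98% and 83.2% in smeb-1 (chr4:9540538-9540807, minus strand).
AT1G66260: aagGCAAGC
AT5G35170: ctgGCAAGT
RPP5: aagGCCACC

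The hexamer GTAAGT, searched at the first 6 bases on the transcribed strand, opened 7 of the 44 introns with higher retention (15.9%), 1 of the 8 with lower retention and 112 of the 1220 others (9.18%), against 7.74% of tested short internal introns. Median GC content was 32.9%, 33.8% and 34.2% in the same order, and median length 421, 332.5 and 309 bases. The length was a multiple of 3 in 20 of the 44 (45.5%), 1 of the 8 and 416 of the 1220 (34.1%). These are descriptions with no test.

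Nearly every retained intron between coding exons would end the reading frame. Of 1177 such introns, 1136 (96.5%) held an in-frame stop, at a median of base 34, and 31 of the 41 without one had a length divisible by 3. All 34 coding introns with higher retention and all 8 with lower retention held a stop. A further 60 introns lay in a 5′ UTR and 23 in a 3′ UTR, and 280 were spliced only by assembled or non-coding transcripts, whose frame is not annotated. The retaining transcript came from the assembler scallop alone for 974 of the 1540 introns, from Araport11 alone for 400 and from both for 166; of the 44 rises, 31 rested on scallop alone and 10 on Araport11 alone.

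The 1272 tested introns are not independent of each other. They came from 1092 distinct sets of retaining transcripts, 219 genes held at least 2 of them, up to 6 in a gene, and 411 overlapped another tested intron. In 1196 the retaining exon was internal, in 46 the last, in 28 the first and in 2 the only exon of its transcript. It was mostly the last exon for the called introns of AT5G65610, RVE4 and BETA-OHASE 1, and the only exon for that of C/VIF1. Whether such forms reflect another end of the transcript was not tested. AT3G56160, a bile acid sodium symporter family gene, held 2 separate introns that both rose. The 387-base intron had a share of 20.1%, 17.7% and 17.3% in wild type and 29.7%, 33.6% and 34.1% in smeb-1, and the 249-base intron had 3.45%, 1.79% and 2.91% in wild type and 7.096%, 8.47% and 6.09% in smeb-1. On the deposited TPM the retaining sums of both rose while the splicing sums did not pass the test (log2 changes of the ratio of 1.08 and 1.42, adjusted p of 0.0403 and 0.0491). After median-of-ratios scaling both splicing sums were called lower (limma adjusted p of 0.0145 and 0.0162).

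Some members contain a small non-coding gene of their own. RefSeq places one inside 14 of the 1540 introns, 10 of them tested, and the GAD2 intron, which spans MIR5014a, was the one called. A shorter GAD2 intron of 1737 bases that also spans MIR5014a and has the same retaining sums was not called (log2 change 0.41, adjusted p = 0.672), and its shares overlapped between genotypes. DCL1 (AT1G01040), the enzyme that cuts microRNA precursors, keeps the microRNA gene MIR838 in a 276-base intron (chr1:28432-28707, plus strand), shown whole with the mature microRNA in capitals.
DCL1: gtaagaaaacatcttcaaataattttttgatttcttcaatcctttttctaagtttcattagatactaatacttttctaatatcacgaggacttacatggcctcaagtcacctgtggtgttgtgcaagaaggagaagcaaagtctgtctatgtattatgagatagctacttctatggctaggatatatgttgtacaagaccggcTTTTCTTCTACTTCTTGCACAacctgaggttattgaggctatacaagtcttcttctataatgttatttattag

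The DCL1 share was 75.4%, 61.2% and 69.9997% in wild type and 54.4%, 56.5% and 52.6% in smeb-1. Each smeb-1 library lay below each wild-type library, but the ratio did not pass the test (log2 change -0.89, SE 0.31, adjusted p = 0.133). RPL34 (AT1G69620), a ribosomal protein gene whose intron holds 2 small nucleolar RNA genes, had 34.2%, 27.8% and 44.3% in wild type and 55.9%, 52.4% and 45.9% in smeb-1, higher in every smeb-1 library and also short of the threshold (log2 change 0.95, adjusted p = 0.132). Both were picked after their values were seen.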

How the data were processed

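RNA from 6 shoot libraries was measured, 3 wild type and 3 smeb-1. The authors deposited TPM per gene and per transcript, and an annotation that credits 59448 transcripts to Araport11 and 16761 to the assembler scallop. STAR 2.5.2b and kallisto 0.43.0 are listed, without their roles, per the submitters' processing notes. With the authors' genome build not given in the sources used here, introns were read on TAIR10.1, where 99.44% of the 141522 nuclear introns had GT-AG or GC-AG ends. Shares depend on how the authors' quantification divided reads among transcripts; junction reads were not counted.

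Retention was tested with limma 3.58.1 (R 4.3.3, moderated with an intensity trend) on log2((retaining sum + 0.1)/(splicing sum + 0.1)), smeb-1 minus wild type, over introns of every class whose sums together averaged 2 TPM or more and whose mean share lay from 0.02 to 0.98. P-values were adjusted by Benjamini-Hochberg and called under 0.05. The retaining exon had to extend by at least 1 base on each side. Sums and genes (mean of at least 1 TPM) were tested on log2(TPM + 1), which understates changes of low levels. The fits were checked on simulated data. Symbols, products, frames and nested genes came from the deposited annotation and from RefSeq.

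The members and gene lists were chosen with earlier results of these data known. Named introns, at most 1 per gene, were the 10 largest rises and up to 10 falls in log2 ratio among called introns without overlap and with sums of at least 5 TPM, the 10 largest rises and 5 largest falls in share among called introns, the 5 most abundant, the 5 longest, up to 6 per gene list and up to 3 without GT-AG ends. Named after their values were seen were AT1G02610, NUDT24, C/VIF1, scpl10, SFP1, SULTR4;1, Hrd1B, DEG5, FUS5, SOC1, BCAT3, BETA-OHASE 1, CIPK3, AT3G56160, DCL1 and RPL34. Alternatives changed the pseudocount, filters, trend, denominator, annotation, flank, length limit, scaling, replicate block and libraries.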

Additional observations from a re-analysis of the deposited data

How the results depend on the processing

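Counts of called long internal introns, 44 higher and 8 lower, depended on most choices; counts for short internal introns, 202 and 59, follow after each. With 0.5 TPM added to each sum the counts were 91 and 29 (418 and 142), and with 1 TPM 129 and 47 (572 and 241). Without a filter on the sums they were 28 and 4, with 35 short internal introns lower. A minimum of 5 TPM gave 13 long introns lower, all other transcripts of the gene as denominator gave 15, and a length limit of 300 bases gave 5. Araport11 transcripts alone, with 338 long introns tested, gave 2 and 1 (9 and 10). Limma without a trend gave 30 and 7. A minimum of 2 TPM in each genotype, chosen after seeing the data, kept 50 of the 50 called introns still tested. Of the 52 called introns, 51 kept their call with 0.5 TPM added, 49 with 1 TPM, 35 without a trend and 2 of the 14 still tested with Araport11 alone. Retaining sums higher and lower, 266 and 123, became 146 and 216 after median-of-ratios scaling and 151 and 221 after quantile normalization. Splicing sums, 298 and 303, became 171 and 523 after median-of-ratios scaling. Host genes, 357 and 282, became 198 and 509 after the same scaling, and 444 were lower after quantile normalization. These scaled counts have no share over all introns or genes beside them, because none was counted.

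With 1 library left out, long introns called higher ran from 0 to 9 and lower from 0 to 2, and short ones from 0 to 57 and from 0 to 15. With the replicate number as a block limma called 0 and 0 (0 and 0 short), with 201 and 63 long and 847 and 312 short at an unadjusted p under 0.05. No label says whether same-numbered libraries were grown or prepared together. Their deviations correlated between -0.0056 and 0.0129, beside -0.0356 to 0.0372 for the other pairs, which cannot exclude a shared batch. Under the block 52 of the named and called introns lost their call, and none changed direction.

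The change in AT1G42480 became 0.59 with Araport11 transcripts alone (adjusted p = 0.736), the cause of which was not tested. That in scpl10 (AT2G23000) became -0.60 with 0.5 TPM added and -1.26 with 1 TPM. Its retaining sum was 0, 0 and 0.0401 TPM in wild type, below each constant added, so the sign of its change rests on that constant. The depth behind the TPM is unknown, so no limit of detection is given.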

Other observations

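Many of the called introns, including some described above, had at least 1 mean sum under 1 TPM in wild type. The wild-type retaining sum was 0.234 TPM in Hrd1B, 0.452 TPM in AT1G60730 and 0.472 TPM in CGLD27, among others. NUDT24, a nudix hydrolase gene, went from 0.412 ± 0.263 to 48.1 ± 28.4 TPM, and its 406-base intron had a share of 0%, 6.301% and 16.1% in wild type and 2.29%, 3.81% and 2.62% in smeb-1. The wild-type libraries spanned the smeb-1 ones, and the log2 change of -3.21 (limma adjusted p = 0.0201) came with both sums higher in smeb-1. The 0.1 TPM added to each sum is large beside the wild-type sums of this intron. C/VIF1, an inhibitor of invertases, went from 12.8 ± 2.39 to 55.8 ± 5.04 TPM as a gene. Its intron had 85.5%, 72.3% and 81.1% in wild type and 92.4%, 92.5% and 86.3% in smeb-1 on sums that rose from 0.494 ± 0.0926 to 6.94 ± 0.582 TPM (retaining) and from 0.134 ± 0.0721 to 0.742 ± 0.2998 TPM (splicing), with a log2 change of 1.74 (adjusted p = 0.0486). The serine carboxypeptidase-like gene scpl10 had 0%, 0% and 0.579% in wild type and 4.096%, 3.96% and 4.52% in smeb-1. Its retaining sum rose from 0.0134 ± 0.0231 to 2.66 ± 0.919 TPM and its splicing sum from 6.095 ± 1.15 to 60.97 ± 22.3 TPM. Its change of 1.31 (adjusted p = 0.0385) turned to -0.60 with 0.5 TPM added to each sum and to -1.26 with 1 TPM added (adjusted p = 0.00347). NUDT24 and C/VIF1 held the 2 called introns with sums under 2 TPM in 1 genotype, and both passed the filter through smeb-1 alone. NUDT24, C/VIF1 and scpl10 were named after their values were seen.

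AT1G02610, a RING finger gene, fell from 86.7 ± 7.26 to 17.1 ± 8.06 TPM and was the 1 rise with overlapping shares, at 0.964%, 0.827% and 1.703% in wild type and 1.55%, 3.29% and 3.801% in smeb-1 (log2 change 1.56, limma adjusted p = 0.0491). SFP1 and SULTR4;1, for a sugar-transporter-like protein and a vacuolar sulfate exporter, rose as genes from 35.5 ± 5.797 to 60.8 ± 5.25 TPM and from 12.3 ± 1.21 to 20.1 ± 3.68 TPM, with shares of 1.97%, 3.73% and 4.16% in wild type and 7.901%, 14.3% and 11.6% in smeb-1 for SFP1 and 6.01%, 7.07% and 4.97% in wild type and 12.3%, 13.5% and 14.2% in smeb-1 for SULTR4;1. In both, each smeb-1 library lay above each wild-type library.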
